A study of Mus musculus with 6 samples.

Results

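Glycolysis and glucose handling genes, from the glucose transporters at the plasma membrane to the entry of pyruvate into the mitochondrion, were followed step by step in mouse endothelial cells (ECs) that lack *Stk11* and in wild type (WT) ECs. The set was chosen by gene symbol: 39 genes were named, and 34 of them were found as a locus of their own with an Ensembl transcript among the 91725 loci of the deposited table. The other 5 (*Pfkm*, *Pfkfb2*, *Pfkfb4*, *Pkm* and *Hif1a*) lie in loci that the authors' assembly joined with a neighbouring gene, and their values are given apart from the 34. RNA was sequenced from ECs of Stk11ec-/- mice, in which both *Stk11* alleles are floxed and Cre under the endothelial *Cdh5* promoter removes exons 3 to 6, and from ECs of WT mice, with 3 libraries per genotype. All mice had the C57BL/6 background and an age of 2 months. The tissue that the ECs came from, the number of mice behind them and the floxed or Cre alleles of the WT mice are not given in the sources used here. A p-value here therefore reflects how these libraries vary, and part of that variation may be technical.

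Glycolysis splits glucose into pyruvate in the cytosol. Glucose enters through carriers of the Slc2a family, hexokinase traps it as glucose 6-phosphate, phosphofructokinase commits it to the pathway, and lactate dehydrogenase turns pyruvate into lactate, which leaves through the monocarboxylate carriers of the Slc16a family. Pyruvate can instead pass the mitochondrial pyruvate carrier and be oxidized by pyruvate dehydrogenase, which the pyruvate dehydrogenase kinases switch off. ECs are known to draw most of their ATP from glycolysis, and Pfkfb3 is the best-studied regulator of that flux in sprouting vessels. Lkb1, the kinase that *Stk11* encodes, activates AMPK, a sensor of the energy state of the cell that acts on glucose uptake and glycolysis, and the transcription factor Hif1a drives many of the genes of the pathway.

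Total counts lay between 37114459 and 55545899 in Stk11ec-/- libraries and between 22179567 and 52795240 in WT libraries. *Stk11* itself had a log2 fold change (Stk11ec-/- over WT, log2FC) of -0.06 ± 0.26 (SE, adjusted p = 0.966, edgeR), and its whole-gene level does not check the removal of exons. The libraries were uneven in cell type markers. The summed level of 15 endothelial markers ran from 351 to 3033 CPM (counts scaled to the library size after TMM normalization) in Stk11ec-/- libraries. In WT libraries it ran from 396 to 1018 CPM. *Pecam1* was at 27.4 CPM or more and *Cdh5* at 37.4 CPM or more in each library, but other markers were near 0 in some. In WT replicate 2, *Robo4* and *Sox18* were at 0 and *Erg* and *Cldn5* at 0.134 CPM. *Cldn5* was also at 0 in WT replicate 1 and at 0.128 CPM in Stk11ec-/- replicate 3. By an unadjusted p below 0.05 (edgeR), 3 of the 15 were higher in Stk11ec-/- ECs and 0 lower, beside 4.36% and 2.97% of all tested genes. Fibroblast markers (10 found) summed to 4779 to 8099.5 CPM in Stk11ec-/- libraries and to 5255 to 10788.5 CPM in WT libraries. These sums exceeded the endothelial sum in each library but leaned on single genes. *Fbln2* alone was at 4733, 4233 and 2645 CPM in Stk11ec-/- libraries 1, 2 and 3. In WT libraries 1, 2 and 3 it was at 3328, 6658 and 8100 CPM. In Stk11ec-/- libraries 1 and 2, no other fibroblast marker exceeded 188 CPM, beside endothelial sums of 1615 and 3033 CPM. *Col1a1* was at 37.0, 188 and 4930 CPM in Stk11ec-/- libraries 1, 2 and 3. In WT libraries 1, 2 and 3 it was at 1775, 991 and 2559 CPM. Stk11ec-/- replicate 3 thus had the lowest *Fbln2* but the highest *Col1a1* of all libraries. Smooth muscle and pericyte markers (10 found) were highest in both libraries numbered replicate 3, with 4758 CPM in Stk11ec-/- replicate 3 and 9943 CPM in WT replicate 3, against 1025 and 1163 CPM in the other Stk11ec-/- libraries and 1027 and 465 CPM in the other WT libraries. The 12 leukocyte markers summed to 11.9 to 16.9 CPM in Stk11ec-/- libraries and to 16.9 to 38.3 CPM in WT libraries, with *Cd3e* and *Ly6g* at 0 in each. The 9 epithelial and mesothelial markers summed to 495, 81.0 and 478 CPM in Stk11ec-/- libraries 1, 2 and 3 and to 674, 1869 and 117 CPM in WT libraries 1, 2 and 3. *Msln*, a mesothelial marker, held most of each sum and was highest in WT replicate 2, at 1646 CPM beside an endothelial sum of 651 CPM in that library, while *Epcam* was at 0 in each. The part that these marker levels play in any difference below was not tested. In such bulk libraries, fewer cells of a type and less RNA per cell cannot be told apart.

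The promoters of 33 of the 34 genes were matched in RefSeq on GRCm38.p6 (250 bases before to 50 after the annotated start). Each was searched on both strands for ACGTG and GCGTG, the core letters that Hif1a and its partner Arnt are known to read. The promoters of *Hk2* and *Slc16a3* are shown because these were the 2 genes with an unadjusted p under 0.05, and that of *Pdk4* because its log2 fold change had the opposite sign and its level was the highest among the kinases of pyruvate dehydrogenase. Capitals mark a match on either strand, so that CACGT and CACGC are the same letters read on the other strand. The windows are chr6:82774405-82774704 on the minus strand for *Hk2*, chr11:120948817-120949116 on the plus strand for *Slc16a3* and chr6:5496229-5496528 on the minus strand for *Pdk4*, each printed 5′ to 3′ along its gene.
Hk2: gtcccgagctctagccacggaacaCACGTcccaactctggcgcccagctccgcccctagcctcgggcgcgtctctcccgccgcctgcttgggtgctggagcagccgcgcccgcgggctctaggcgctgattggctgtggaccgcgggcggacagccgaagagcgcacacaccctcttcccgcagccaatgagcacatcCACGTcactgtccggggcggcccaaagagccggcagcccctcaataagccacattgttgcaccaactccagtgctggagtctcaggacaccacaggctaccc
Slc16a3: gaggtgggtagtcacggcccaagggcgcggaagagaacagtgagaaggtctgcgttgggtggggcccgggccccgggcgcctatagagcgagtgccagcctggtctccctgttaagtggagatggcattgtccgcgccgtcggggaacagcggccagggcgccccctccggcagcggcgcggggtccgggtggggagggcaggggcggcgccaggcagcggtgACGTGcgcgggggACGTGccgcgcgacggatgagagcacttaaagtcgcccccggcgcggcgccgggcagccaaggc
Pdk4: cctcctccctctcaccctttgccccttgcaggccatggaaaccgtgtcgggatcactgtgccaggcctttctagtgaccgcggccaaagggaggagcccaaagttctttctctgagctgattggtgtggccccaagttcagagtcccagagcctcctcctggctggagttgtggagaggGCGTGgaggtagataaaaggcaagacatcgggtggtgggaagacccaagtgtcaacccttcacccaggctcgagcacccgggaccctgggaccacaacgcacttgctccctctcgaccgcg

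*Hk2* and *Slc16a3* each held 2 matches in this window and *Pdk4* held 1. The counted locus of *Slc16a3* starts at 120948480, before the window at 120948817 to 120949116. Both matches of *Slc16a3* thus lie within that locus, and the RefSeq start used is not its first base. Some genes had several promoters, with 47 for the 33 members, 13167 for the 10311 tested genes and 32851 for all 27025 genes. Of the 47, 35 (74.5%) held a match, beside 43.8% of the 32851. A gene was counted when any of its promoters held a match. Of the 33 genes with a promoter, 29 (87.9%) held at least 1 match, beside 65.9% of the 10311 tested genes with a RefSeq promoter and 46.7% of all 27025 genes with one. Base composition moved with this share, since the median GC content was 62.0% for the members, 60.3% for tested genes and 52.7% for all genes, and its part was not tested. The E-box CACGTG, the letters read by Myc and related factors, was present in 4 of the 33 (12.1%) and in 8.09% of all genes. A match is a description of the letters and not a measured binding site.

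All 34 genes passed the filter on low counts, and none was called at an adjusted p under 0.05 by the quasi-likelihood test of edgeR with p-values adjusted after Benjamini and Hochberg, where 0.046% of the 17396 tested genes were called higher and 0.0287% lower. By an unadjusted p below 0.05, 0 of the 34 were higher in Stk11ec-/- ECs, beside 4.36% of all tested genes, and 2 (*Hk2* and *Slc16a3*) were lower, beside 2.97%. DESeq2, run as another tool, called *Hk2* alone as lower at an adjusted p under 0.05, where it called 0.604% of tested genes lower and 0.638% higher, and its unadjusted p was under 0.05 for 3 lower genes (*Hk2*, *Slc16a3* and *Eno3*), beside 4.04% of tested genes, and for 0 higher ones, beside 5.27%. The log2FC was above 0 for 16 genes and below 0 for 18, beside 51.5% above 0 among all tested genes. Its median was -0.08 over the 34 and 0.02 over all tested genes. Values of log2FC were below 0 for both Slc2a carriers, both hexokinases, *Gpi1*, both phosphofructokinases, both aldolases, *Tpi1*, *Gapdh* and *Pgam1*. They were above 0 for both Pfkfb enzymes, *Pgk1*, all 4 pyruvate dehydrogenase kinases, both subunits of pyruvate dehydrogenase and both pyruvate carriers. Signs were mixed within the enolases (*Eno2* above 0), the lactate dehydrogenases (*Ldhb*), the Slc16a carriers (*Slc16a1*), the glycogen enzymes (*Pygl*) and the phosphoglucomutases (*Pgm2*). No difference between steps was tested. Under the other scalings the signs held, except that *Eno1* and *Ldha* were above 0 in both limma settings and *Pfkp* in limma on log2(FPKM + 0.1). With 1 library left out at a time, 12 genes changed sign in at least 1 case (*Aldoc*, *Gapdh*, *Eno1* and *Ldha* to above 0, and *Slc16a1*, *Pdk2*, *Pdk3*, *Pdha1*, *Pdhb*, *Mpc1*, *Mpc2* and *Pygl* to below 0). By unadjusted p, *Hk2* alone was lower without Stk11ec-/- replicate 1. Without Stk11ec-/- replicate 2, *Hk2* was lower and 2 genes (*Eno2* and *Ldhb*) were higher. Without Stk11ec-/- replicate 3 the count was 5 (*Hk2*, *Slc16a3*, *Eno3* and *Slc2a3* lower, *Pdk4* higher). Without WT replicate 1, *Hk2* was lower and *Pdk1* higher, and without WT replicate 2, *Hk2*, *Slc16a3* and *Slc2a1* were lower.

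**Figure D1:**
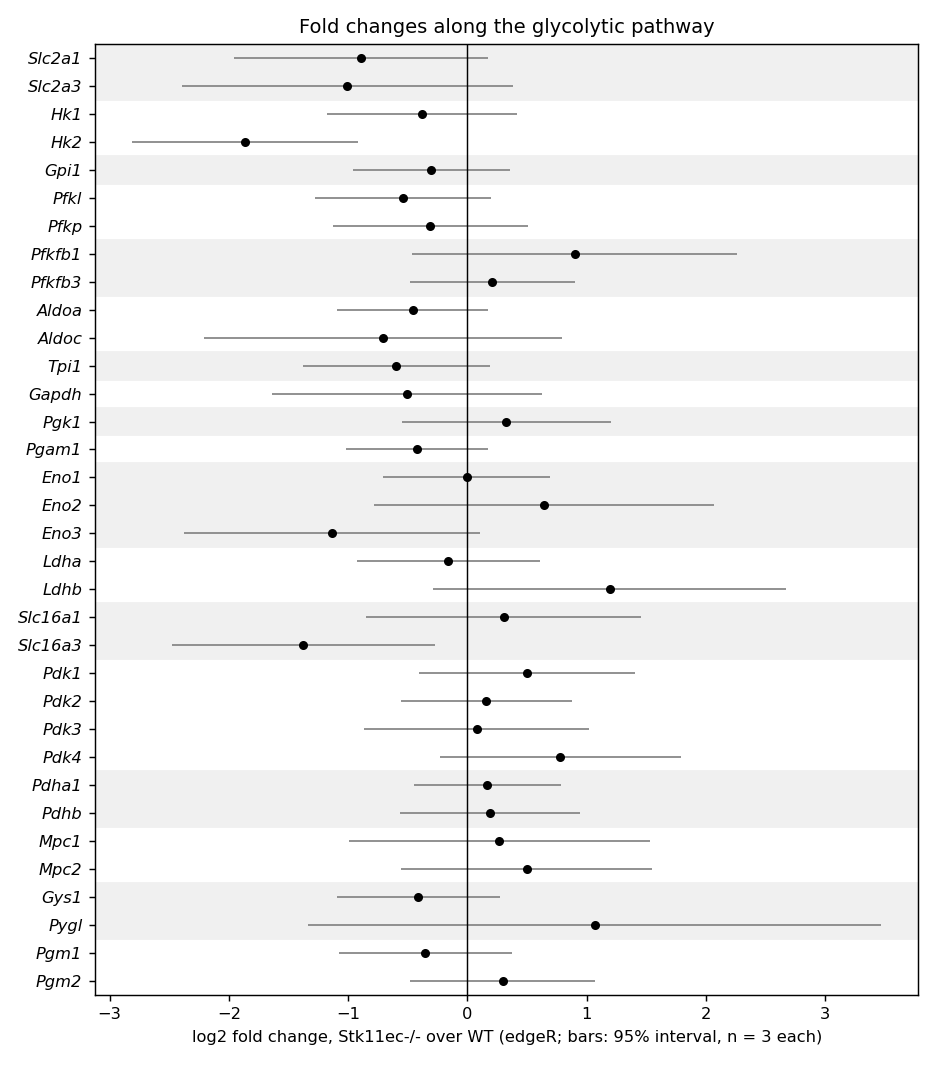
Log2 fold change (x axis, Stk11ec-/- over WT, edgeR) of the 34 genes in pathway order from top to bottom, with shading by step. Points are estimates and bars 95% intervals over 3 libraries per genotype. Only the intervals of *Hk2* (-2.81 to -0.92) and *Slc16a3* (-2.48 to -0.27) lie wholly on 1 side of 0, before any adjustment.

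Levels of the genes were compared per transcript length, as the mean deposited FPKM over all 6 libraries. *Aldoa* was the most abundant at 316 FPKM, followed by *Eno1* and *Pgk1* at 205 FPKM each, *Pgam1* at 137, *Ldha* at 118 and *Tpi1* at 104 FPKM. *Pdk4* at 76.8 FPKM and *Gpi1* at 64.8 FPKM came next. Aldolase and most enzymes of the later steps thus stood above the carriers and kinases of the first steps, where *Slc2a1* was at 26.7 FPKM, *Hk1* at 25.8, *Pfkl* at 20.7 and *Hk2* at 8.18 FPKM. *Slc2a3*, the neuronal type of glucose carrier, was the lowest of the 34 at 0.342 FPKM. *Eno1* and *Pgk1* were not in the same order in both genotypes: *Eno1* averaged 225 FPKM in Stk11ec-/- ECs and 186 FPKM in WT ECs, and *Pgk1* averaged 249.99 FPKM in Stk11ec-/- ECs and 160.2 FPKM in WT ECs. FPKM carries no TMM scaling. In CPM, *Eno1* averaged 1382 in Stk11ec-/- ECs and 1388 in WT ECs, so its gap in FPKM was absent there.

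**Figure D2:**
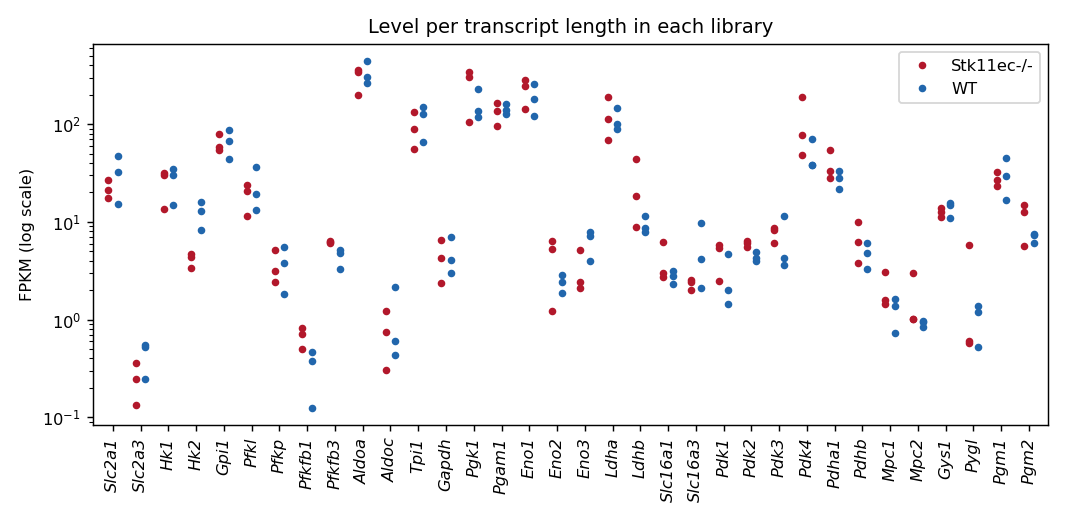
Deposited FPKM (y axis, log scale) of the 34 genes in pathway order, with 3 Stk11ec-/- libraries in red to the left of 3 WT libraries in blue for each gene. Mean levels over the 6 libraries span 0.342 FPKM for *Slc2a3* to 316 FPKM for *Aldoa*.

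Of both glucose carriers, *Slc2a1*, which encodes Glut1, the carrier of barrier endothelium (chromosome 4, 119108711 to 119137983, GRCm38), was the more abundant in FPKM. It was at 77.4, 101 and 88.6 CPM in Stk11ec-/- libraries 1, 2 and 3 and at 129, 81.6 and 283 CPM in WT libraries 1, 2 and 3. WT replicate 2 lay within the range of the Stk11ec-/- libraries, so the groups overlapped. The log2FC was -0.89 ± 0.46 (SE, adjusted p = 0.699, edgeR) and shrank to -0.25 without WT replicate 3, the library with the most smooth muscle and pericyte markers. It was -1.21 without WT replicate 2, the library with the most epithelial and mesothelial markers. *Slc2a3* (chromosome 6, 122727809 to 122779957) was near the lower end of detection, at 1.90, 1.05 and 3.75 CPM in Stk11ec-/- libraries and at 4.38, 6.01 and 3.10 CPM in WT libraries. Stk11ec-/- replicate 3 was above WT replicate 3, and the log2FC of -1.01 ± 0.59 (SE, adjusted p = 0.734, edgeR) was -1.60 without Stk11ec-/- replicate 3. *Slc2a3* made up 1.21% ± 0.747 of the summed FPKM of both carriers in Stk11ec-/- ECs and 1.85% ± 1.46 in WT ECs (SD, n = 3 each).

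*Hk2*, the inducible hexokinase that binds to mitochondria, showed the smallest p of the set (chromosome 6, 82725025 to 82774454). It was at 29.5, 23.6 and 43.9 CPM in Stk11ec-/- libraries 1, 2 and 3 and at 95.1, 80.8 and 177 CPM in WT libraries 1, 2 and 3. Each Stk11ec-/- library lay below each WT library, as did those of *Aldoa* and *Pgam1* but of no other member, and such a separation downward was seen in 6.59% of all tested genes and upward in 7.7%. The mean was 32.3 ± 10.5 CPM in Stk11ec-/- ECs and 118 ± 51.9 CPM in WT ECs (SD, n = 3 each), a log2FC of -1.86 ± 0.40 (SE, adjusted p = 0.435, edgeR). Leaving out any 1 library gave -2.15 to -1.44, and leaving out both libraries numbered replicate 3 gave -1.73. DESeq2 gave -1.88 with an adjusted p of 0.00731, so that the call depends on the tool. *Hk2* overlaps no exon of another annotated gene and had no locus of like sequence.

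*Hk1*, the housekeeping hexokinase (chromosome 10, 62268855 to 62379908), was the more abundant of the pair in FPKM. Its level was 267, 293 and 167 CPM in Stk11ec-/- libraries and 341, 388 and 216 CPM in WT libraries, with overlapping groups. The log2FC was -0.38 ± 0.34 (SE, adjusted p = 0.832, edgeR). As a share of the summed FPKM of both hexokinases, *Hk2* took 12.6%, 9.51% and 25.6% in Stk11ec-/- libraries 1, 2 and 3 and 26.7%, 21.4% and 51.8% in WT libraries 1, 2 and 3. The share in Stk11ec-/- replicate 3 exceeded that in WT replicate 2, and the difference did not pass an exact two-sided permutation test (p = 0.2, adjusted p = 0.771 over 9 isoform pairs), for which 0.1 is the smallest p that 3 against 3 libraries allow.

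**Figure D3:**
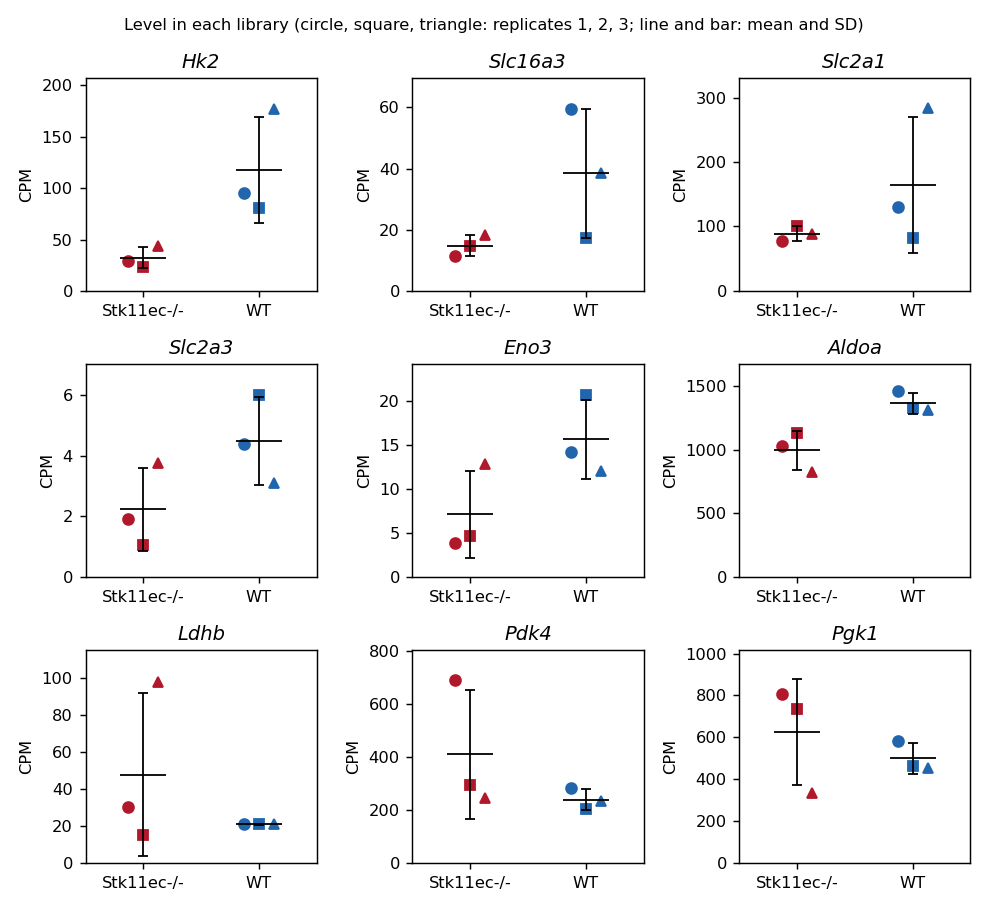
CPM (y axis, from 0) of 9 genes in each library, Stk11ec-/- on the left and WT on the right of each panel; circles, squares and triangles are replicates 1, 2 and 3, lines are means and bars are SD (n = 3 each). *Hk2* and *Aldoa* do not overlap between the groups, *Ldhb* stands out in 1 library (97.8 CPM in Stk11ec-/- replicate 3), and so does *Pdk4* (691 CPM in Stk11ec-/- replicate 1).

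Downstream of hexokinase, *Gpi1* converts glucose 6-phosphate to fructose 6-phosphate (chromosome 7, 34201330 to 34230336). It was at 532, 379 and 536 CPM in Stk11ec-/- libraries and at 635, 666 and 484 CPM in WT libraries, and the groups overlapped through WT replicate 3. The log2FC was -0.30 ± 0.28 (SE, adjusted p = 0.839, edgeR). *Pfkl*, the liver type of phosphofructokinase (chromosome 10, 77986947 to 78009807), was the leading isoform of its step. It was at 166, 151 and 109 CPM in Stk11ec-/- libraries and at 275, 193 and 152 CPM in WT libraries, where only WT replicate 3 reached into the Stk11ec-/- range. Its log2FC was -0.54 ± 0.31 (SE, adjusted p = 0.734, edgeR). *Pfkp*, the platelet type, took 16.1% ± 2.69 of the summed FPKM of *Pfkp* and *Pfkl* in Stk11ec-/- ECs and 14.0% ± 2.26 in WT ECs (SD, n = 3 each, exact two-sided permutation p = 0.3, adjusted p = 0.771 over 9 pairs). This share leaves out *Pfkm*, whose joined locus averaged 8.49 FPKM over all libraries, beside 3.62 FPKM for *Pfkp*.

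*Pfkfb3* makes fructose 2,6-bisphosphate, the activator of phosphofructokinase (chromosome 2, 11471433 to 11554077). It was at 48.5, 52.4 and 67.2 CPM in Stk11ec-/- libraries and at 44.7, 37.6 and 63.1 CPM in WT libraries, with overlap, and its log2FC was 0.21 ± 0.30 (SE, 95% interval -0.48 to 0.90, adjusted p = 0.895, edgeR). The interval leaves room for a change in either direction. *Aldoa*, the aldolase that splits fructose 1,6-bisphosphate (chromosome 7, 126795234 to 126800751), was at 1030.5, 1131 and 823 CPM in Stk11ec-/- libraries and at 1460.3, 1328 and 1310.5 CPM in WT libraries. The groups did not overlap, yet the log2FC of -0.46 ± 0.27 (SE, adjusted p = 0.734, edgeR) did not pass the test. It lay between -0.55 and -0.34 whichever library was left out. Exons of *Fam57b* overlap *Aldoa*, and the use of strand in the counting is not stated, so reads of overlapping genes cannot be told apart. The same limit holds for *Slc2a1*, *Hk1*, *Gpi1*, *Pfkp*, *Pfkfb1*, *Tpi1*, *Gapdh*, *Pdha1*, *Mpc1*, *Gys1* and *Pgm1*, which each overlap an exon of 1 other gene. It does not hold for *Slc16a3*, *Pdk4*, *Ldha*, *Ldhb* or *Eno3*. *Tpi1*, which interconverts the triose phosphates (chromosome 6, 124810586 to 124814296), was at 387, 265 and 219 CPM in Stk11ec-/- libraries and at 471, 532 and 314 CPM in WT libraries, and only Stk11ec-/- replicate 1 exceeded a WT library. Its log2FC was -0.60 ± 0.33 (SE, adjusted p = 0.721, edgeR).

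*Gapdh*, the dehydrogenase that starts the payoff phase and a common reference gene, stood far below its neighbours in the pathway, at 4.55 FPKM. At its own locus (chromosome 6, 125161715 to 125165773) it was at 18.6, 29.5 and 13.9 CPM in Stk11ec-/- libraries and at 19.4, 18.9 and 49.7 CPM in WT libraries. WT replicate 3 alone stood above the rest, and the log2FC of -0.51 ± 0.49 (SE, adjusted p = 0.842, edgeR) was 0.11 without that library. A further 180 annotated loci share at least 90% identity with a *Gapdh* transcript over at least 50% of the shorter one, and hold nearly all of the counts: only 1.03% of the counts at *Gapdh* and these loci lay at *Gapdh*. The largest of them was the pseudogene *Gm7336*. Summed over the 181 loci, the level was 2100.0, 2074.8 and 2214 CPM in Stk11ec-/- libraries 1, 2 and 3 and 2317, 2676 and 3165 CPM in WT libraries 1, 2 and 3. The summed groups did not overlap, with means of 2129.5 ± 74.1 CPM in Stk11ec-/- ECs and 2719 ± 426 CPM in WT ECs (SD, n = 3 each), and the log2FC was -0.35 (adjusted p = 0.805, edgeR). The level at the *Gapdh* locus is therefore uncertain, and so is any ratio to it.

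**Figure D4:**
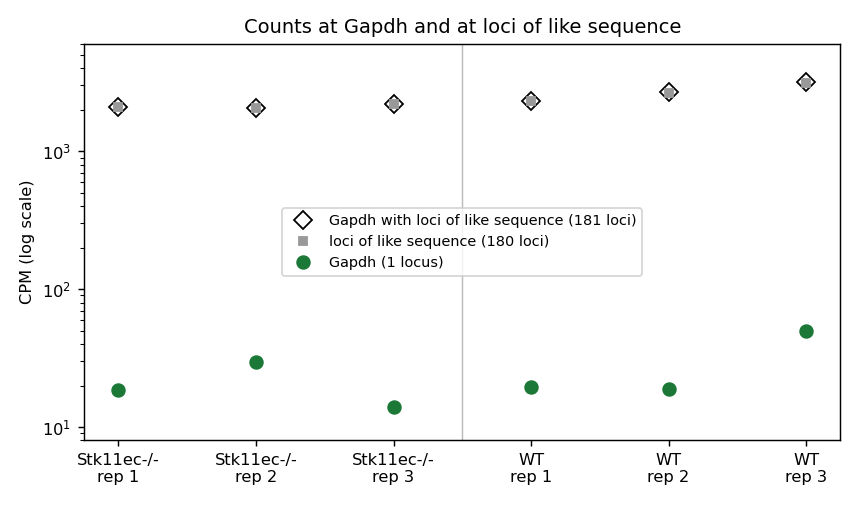
CPM (y axis, log scale) in each library at the *Gapdh* locus (circles), at 180 loci of like sequence (squares) and at both together (diamonds). The *Gapdh* locus lies between 13.9 and 49.7 CPM in all 6 libraries, and the sum between 2074.8 and 3165 CPM, with the 3 Stk11ec-/- libraries below the 3 WT libraries.

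The last steps to pyruvate were among the most abundant of the set and showed mixed signs. *Pgk1*, the first ATP-producing kinase of glycolysis (chromosome X, 106187100 to 106203699), was at 807, 734 and 336 CPM in Stk11ec-/- libraries and at 584, 461 and 452 CPM in WT libraries. Stk11ec-/- replicates 1 and 2 lay above each WT library and replicate 3 below each of them. The log2FC was 0.33 ± 0.38 (SE, adjusted p = 0.872, edgeR). *Pgam1*, the mutase of the next step (chromosome 19, 41911923 to 41918660), was at 341, 292 and 272 CPM in Stk11ec-/- libraries and at 362, 379 and 475 CPM in WT libraries. The groups did not overlap, and the log2FC of -0.43 ± 0.25 (SE, adjusted p = 0.738, edgeR) did not pass the test. *Eno1*, the ubiquitous enolase (chromosome 4, 150236721 to 150248879), was at 1393, 1658 and 1095 CPM in Stk11ec-/- libraries and at 1572, 1463 and 1129 CPM in WT libraries, with a log2FC of -0.01 ± 0.30 (SE, 95% interval -0.71 to 0.70, adjusted p = 0.998, edgeR). Its sign depended on the setting. Of the counts at *Eno1* and 7 loci of like sequence, 90.4%, 90.5% and 89.2% lay at *Eno1* in Stk11ec-/- libraries 1, 2 and 3 and 89.4%, 90.2% and 52.2% in WT libraries 1, 2 and 3. WT replicate 3 thus stood apart in this share, and the largest of these loci was *Eno1b*. With the loci of like sequence summed, the level was 1541, 1833 and 1227 CPM in Stk11ec-/- libraries and 1759, 1622 and 2161 CPM in WT libraries, and the log2FC was -0.27. For *Pgam1* the share at its own locus was 87.4% over all libraries.

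*Eno3*, the muscle type of enolase (chromosome 11, 70657202 to 70662513), had the third-smallest p of the set. It was at 3.91, 4.62 and 12.8 CPM in Stk11ec-/- libraries and at 14.2, 20.7 and 12.05 CPM in WT libraries. Stk11ec-/- replicates 1 and 2 lay below each WT library, while replicate 3 lay above WT replicate 3. The log2FC was -1.14 ± 0.53 (SE, adjusted p = 0.682, edgeR), and -1.87 without Stk11ec-/- replicate 3, the one with the most smooth muscle and pericyte markers in its group. The 10 skeletal muscle markers summed to 0.907, 6.08 and 11.0 CPM in Stk11ec-/- libraries 1, 2 and 3. In WT libraries 1, 2 and 3 they summed to 0.181, 1.95 and 7.78 CPM. *Pygm* held 10.2 CPM of the sum in Stk11ec-/- replicate 3. These sums were not far from the level of *Eno3* in some libraries, and their part in it was not tested.

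For the lactate branch, *Ldha* encodes the subunit that favours the making of lactate (chromosome 7, 46841475 to 46855627). It was at 664, 407 and 324 CPM in Stk11ec-/- libraries and at 555, 498 and 504 CPM in WT libraries, which lay inside the Stk11ec-/- range. The log2FC was -0.16 ± 0.33 (SE, 95% interval -0.92 to 0.61, adjusted p = 0.929, edgeR). *Ldhb*, the subunit that favours the use of lactate (chromosome 6, 142490249 to 142507957), was at 30.2, 15.2 and 97.8 CPM in Stk11ec-/- libraries and at 20.8, 20.8 and 21.1 CPM in WT libraries. Stk11ec-/- replicate 3 stood apart. The log2FC of 1.19 ± 0.63 (SE, adjusted p = 0.712, edgeR) was 0.12 without it. *Ldhb* thereby took 8.74%, 7.30% and 38.9% of the summed FPKM of both subunits in Stk11ec-/- libraries 1, 2 and 3 and 7.31%, 8.08% and 8.11% in WT libraries 1, 2 and 3 (exact two-sided permutation p = 0.5, adjusted p = 0.771 over 9 pairs).

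*Slc16a3*, which encodes Mct4, the lactate exporter of glycolytic cells, was the other gene with an unadjusted p under 0.05 (chromosome 11, 120948480 to 120958775). It was at 11.3, 14.8 and 18.4 CPM in Stk11ec-/- libraries and at 59.6, 17.2 and 38.5 CPM in WT libraries. WT replicate 2 lay between the Stk11ec-/- libraries, so the groups overlapped. The mean was 14.8 ± 3.55 CPM in Stk11ec-/- ECs and 38.4 ± 21.2 CPM in WT ECs (SD, n = 3 each), and the log2FC was -1.37 ± 0.47 (SE, adjusted p = 0.662, edgeR). It was -0.90 without WT replicate 1 and -1.72 without WT replicate 2, and its unadjusted p was above 0.05 when Stk11ec-/- replicate 1, Stk11ec-/- replicate 2 or WT replicate 1 was left out. *Slc16a1*, which encodes Mct1, the carrier that moves lactate both ways, was at 13.2 to 38.97 CPM in Stk11ec-/- libraries and at 14.3 to 23.8 CPM in WT libraries. *Slc16a3* took 40.4%, 48.2% and 28.1% of the summed FPKM of both carriers in Stk11ec-/- libraries 1, 2 and 3 and 77.7%, 48.2% and 57.3% in WT libraries 1, 2 and 3 (exact two-sided permutation p = 0.2, adjusted p = 0.771 over 9 pairs).

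At the mitochondrial gate, *Pdk4*, the kinase of pyruvate dehydrogenase that is known to rise in fasting, was the dominant isoform (chromosome 6, 5483351 to 5496309). It was at 691, 293 and 245 CPM in Stk11ec-/- libraries and at 282, 202 and 233 CPM in WT libraries. Stk11ec-/- replicates 1 and 2 lay above each WT library, but replicate 3 lay below WT replicate 1. The log2FC was 0.78 ± 0.43 (SE, adjusted p = 0.721, edgeR) and was 0.18 without Stk11ec-/- replicate 1. *Pdk4* made up 95.2% ± 1.81 of the summed FPKM of *Pdk4* and *Pdk1* in Stk11ec-/- ECs and 95.02% ± 1.36 in WT ECs (SD, n = 3 each). This share leaves out *Pdk2* and *Pdk3*, which averaged 5.18 and 7.08 FPKM over all libraries, beside 3.64 FPKM for *Pdk1*. *Pdk1*, *Pdk2* and *Pdk3* had log2FC values of 0.50, 0.16 and 0.08. *Pdha1*, the E1 alpha subunit that these kinases phosphorylate (chromosome X, 160122209 to 160138413), was at 210.5, 134 and 152 CPM in Stk11ec-/- libraries and at 143, 159 and 141 CPM in WT libraries, with a log2FC of 0.17 ± 0.26 (SE, adjusted p = 0.906, edgeR). *Mpc1*, a subunit of the mitochondrial pyruvate carrier (chromosome 17, 8282904 to 8297661), was low, at 6.99, 3.72 and 4.50 CPM in Stk11ec-/- libraries and at 1.90, 4.57 and 6.14 CPM in WT libraries. Its log2FC was 0.27 ± 0.54 (SE, adjusted p = 0.927, edgeR), and only 43.9% of the counts at *Mpc1* and its 3 loci of like sequence lay at *Mpc1*.

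Glucose storage was represented by *Gys1*, the glycogen synthase of non-hepatic tissue (chromosome 7, 45434844 to 45456619), at 56.5, 71.5 and 86.7 CPM in Stk11ec-/- libraries and at 84.9, 78.9 and 122 CPM in WT libraries. The groups overlapped, and the log2FC was -0.41 ± 0.29 (SE, adjusted p = 0.772, edgeR). *Pgm1*, the phosphoglucomutase that links glycogen to glucose 6-phosphate (chromosome 4, 99929414 to 99987294), was at 98.3, 74.5 and 112 CPM in Stk11ec-/- libraries and at 150.1, 130.5 and 83.6 CPM in WT libraries, with a log2FC of -0.35 ± 0.31 (SE, adjusted p = 0.824, edgeR). The other 12 genes (*Pfkp*, *Pfkfb1*, *Aldoc*, *Eno2*, *Slc16a1*, *Pdk1*, *Pdk2*, *Pdk3*, *Pdhb*, *Mpc2*, *Pygl* and *Pgm2*) averaged 0.497 to 9.02 FPKM and had log2FC values from -0.71 to 1.07, 10 of them above 0, with unadjusted p from 0.164 to 0.850 and adjusted p from 0.755 to 0.973. The value of 1.07 belonged to *Pygl*, the liver type of glycogen phosphorylase, which rested on 57.1 CPM in Stk11ec-/- replicate 3, against 4.39 and 4.36 CPM in the other Stk11ec-/- libraries and 9.49, 5.54 and 16.4 CPM in WT libraries. Over the 34 genes, 2 had a log2FC above 1 (*Ldhb* and *Pygl*), beside 11.2% of all tested genes, and 4 had one below -1 (*Hk2*, *Slc16a3*, *Eno3* and *Slc2a3*), beside 8.91%.

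Summed over the 34 genes, the level was 7182, 6365 and 5159 CPM in Stk11ec-/- libraries 1, 2 and 3 and 7587, 7020.4 and 6486 CPM in WT libraries 1, 2 and 3. Stk11ec-/- replicate 1 exceeded both WT replicates 2 and 3, so the sums overlapped with *Gapdh* taken at its own locus. This total leaves out the 180 loci of a sequence like *Gapdh*. Those were at 2081, 2045 and 2200 CPM in Stk11ec-/- libraries and at 2297, 2657 and 3116 CPM in WT libraries. Overlap of a total that includes them is not given here. *Pkm*, the pyruvate kinase that ends glycolysis, averaged 181 FPKM in Stk11ec-/- ECs and 188 FPKM in WT ECs, at a locus that also holds *Gm49759*. That locus was at 2299, 1973 and 1204 CPM in Stk11ec-/- libraries and at 2531, 2819 and 1672 CPM in WT libraries, with a log2FC of -0.36 ± 0.37 (SE, adjusted p = 0.853, edgeR). The locus of *Hif1a* with *Snapc1* was at 145, 79.4 and 49.97 CPM in Stk11ec-/- libraries and at 241, 62.8 and 59.8 CPM in WT libraries (log2FC -0.40, adjusted p = 0.907, edgeR). The loci that hold *Pfkm*, *Pfkfb2* and *Pfkfb4* had log2FC values of -0.32, -0.32 and -1.05 and adjusted p of 0.857, 0.873 and 0.769, and *Pfkfb4* shares its locus with the collagen gene *Col7a1*. All 5 joined loci were thus below 0, and with them the median of the set was -0.31.

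Of the 34 genes, 4 lie on chromosome X (*Pgk1*, *Pdha1*, *Pdk3* and *Pfkfb1*). All 4 had log2FC values above 0, with a median of 0.25 (*Pdha1* was below 0 without Stk11ec-/- replicate 1, and *Pdk3* without Stk11ec-/- replicate 3 or either of WT replicates 2 and 3), whereas 12 of the 30 genes on other chromosomes were above 0, with a median of -0.31. Among all tested genes, 51.5% were above 0, with a median of 0.02. The share among all tested genes of chromosome X is not given here, and no difference between chromosomes was tested. *Xist*, transcribed from the silenced X of females, was at 267, 458 and 464 CPM in Stk11ec-/- libraries and at 1.18, 0.739 and 0.598 CPM in WT libraries, and the Y-linked *Kdm5d* was at 0 to 0.171 CPM in Stk11ec-/- libraries and at 8.67 to 12.4 CPM in WT libraries. The libraries of both genotypes thus differed in sex-linked RNA as well, and genotype and this difference cannot be told apart in any value given here.

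In the neighbouring pathways, again edgeR called no gene (0 at an adjusted p below 0.05), and DESeq2 called 1 gene over all lists (*Mif*, a target of Hif1a). The pentose phosphate pathway branches off at glucose 6-phosphate and makes NADPH. Of its 12 listed genes 10 were tested, of which 0 were higher and 2 lower by an unadjusted p below 0.05, beside 4.36% higher and 2.97% lower among all tested genes. *G6pdx*, its entry enzyme, was at 104, 61.2 and 64.8 CPM in Stk11ec-/- libraries and at 229, 240.2 and 65.9 CPM in WT libraries (log2FC -1.21, adjusted p = 0.673, edgeR). *Tigar*, a phosphatase that lowers fructose 2,6-bisphosphate, was at 12.1, 8.19 and 5.29 CPM in Stk11ec-/- libraries and at 17.9, 14.98 and 17.6 CPM in WT libraries, without overlap (log2FC -0.98, adjusted p = 0.662, edgeR). Of 17 other glycogen genes 16 were tested, of which 1 was higher and 0 lower by an unadjusted p below 0.05, a share close to the 4.36% of all tested genes that were higher. That one, *Epm2a*, which encodes the glycogen phosphatase laforin, was at 13.9, 11.0 and 8.16 CPM in Stk11ec-/- libraries and at 5.24, 4.13 and 4.01 CPM in WT libraries, without overlap (log2FC 1.30, adjusted p = 0.599, edgeR).

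Among 22 regulators of glucose use, 19 were tested, of which 1 was higher and 0 lower by an unadjusted p below 0.05, again close to the 4.36% of all tested genes. That one was *Txnip*, which encodes an inhibitor of glucose uptake and is known to follow the glucose 6-phosphate of the cell. It was at 595, 538 and 389 CPM in Stk11ec-/- libraries and at 232, 340.0 and 323 CPM in WT libraries. Each Stk11ec-/- library lay above each WT library, as in 7.7% of all tested genes, with a log2FC of 0.77 ± 0.29 (SE, adjusted p = 0.662, edgeR). All 21 listed targets of Hif1a outside glycolysis were tested, of which 1 was higher and 1 lower by an unadjusted p below 0.05 (4.36% and 2.97% of all tested genes). *Mif*, a cytokine gene, was at 63.2, 53.9 and 63.5 CPM in Stk11ec-/- libraries and at 107, 125 and 129.5 CPM in WT libraries, without overlap (log2FC -1.0 ± 0.23 SE, adjusted p = 0.516, edgeR). DESeq2 gave it an adjusted p of 0.0312. *Bnip3l*, a mitophagy receptor, was at 84.1, 69.1 and 44.4 CPM in Stk11ec-/- libraries and at 32.1, 32.3 and 46.9 CPM in WT libraries (log2FC 0.83, adjusted p = 0.669, edgeR). The median log2FC of these targets was 0.28, and 13 of the 21 were above 0. Targets of this factor inside and outside glycolysis lay on both sides of 0.

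Of 34 other isoforms and carriers of the pathway, 26 were tested, of which 1 was higher and 1 lower by an unadjusted p below 0.05, beside the same 4.36% and 2.97% of all tested genes. *Slc2a13*, a carrier of myo-inositol, was at 11.6, 20.8 and 27.3 CPM in Stk11ec-/- libraries and at 9.99, 3.43 and 6.30 CPM in WT libraries, without overlap (log2FC 1.60, adjusted p = 0.637, edgeR). *Slc2a4*, the insulin-responsive carrier, was near 0, at 0.279, 0 and 0 CPM in Stk11ec-/- libraries and at 5.15, 0.403 and 0.755 CPM in WT libraries, and no fold is given. Of 8 genes of gluconeogenesis 5 were tested, and the unadjusted p was under 0.05 for none (0 of 5).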

How the data were processed

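RNA was sequenced from endothelial cells of 3 Stk11ec-/- and 3 WT libraries, grouped by their labels. In 1 table the authors deposited, for each assembled locus, raw counts of reads and FPKM values, which they had scaled to the length of the transcript and the depth of the library. The value columns are named after the libraries. HISAT2 alignment to GRCm38 is stated in the methods, whereas BWA, TopHat, Cufflinks and mm9 stand in the processing notes of the submitters. Of the genes described, 28 of 34 have the same ends in GENCODE M21 (GRCm38), the build of the positions given. A gene was the locus whose name equals its symbol and that holds an Ensembl transcript. Loci with no Ensembl transcript, 38195 in all, entered neither library sizes nor tests. The loci kept held 49753183 of 52456767, 33874211 of 37114459 and 50562162 of 55545899 counts in Stk11ec-/- libraries 1, 2 and 3. They held 20626588 of 22179567, 33356407 of 38714294 and 45521623 of 52795240 counts in WT libraries 1, 2 and 3. Loci with no gene name were only a part of those left out, at 0.359% to 0.887% of the counts per library.

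The deposited counts of 53530 loci were analysed with edgeR 4.0.16 in R 4.3.3 to give TMM factors, CPM, log2 fold changes (Stk11ec-/- over WT) and p-values (default low-count filter, which kept 17396 loci; quasi-likelihood test; genotype as the 1 factor), with Benjamini-Hochberg adjustment over all tested loci and a threshold of 0.05. The SE is the log2 fold change over the root of the test's F, and intervals are 95%. The common biological coefficient of variation was 0.628. Deposited FPKM served to compare levels between genes and for isoform shares, which were compared by exact permutation over libraries. Loci of like sequence were found with blastn on GENCODE M21 transcripts (at least 90% identity over at least 50% of the shorter transcript). Python 3.11.15 (matplotlib 3.10.9, numpy 2.4.6, pandas 2.3.3) served for tables and plots. Total counts per library, given in the results, ran from 22179567 to 55545899, and the SD and SE describe the spread between libraries.

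The members and lists were chosen with earlier results of these data known. Genes given in full are the 10 with the smallest unadjusted p and the gene with the most FPKM at each step, which gave 22, and other genes come from fixed lists, with up to 3 of the smallest p each. Alternatives were median-ratio size factors, DESeq2 1.42.0, no low-count filter, a mean FPKM of at least 5, limma 3.58.1 on log2(FPKM + 1) and log2(FPKM + 0.1), the replicate number as a block, each library left out, and all loci with a gene name. Leaving out both libraries numbered replicate 3, counting joined loci as members and summing loci of like sequence were added after seeing the data. In simulated counts of Stk11ec-/- against WT libraries (16377 loci), 50 loci were altered at each fold. Folds of 2 and 8 were set upward only and folds of 4 and 16 downward only. The share that edgeR called was 0% at a fold of 2, 6% at 4, 56% at 8 and 48% at 16. Altered loci lost to the low-count filter counted as not called. Size and direction of the fold thus cannot be told apart in these shares. Of 16196 unaltered loci, 2 were called. No 2 libraries of a group matched within sampling noise.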

Additional observations from a re-analysis of the deposited data

How the results depend on the processing

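Among the 22 genes given in full, 17 kept 1 direction in each of the 16 alternatives in which they could be fitted, and *Hk2* with DESeq2 (-1.88) was the 1 value that passed the adjusted threshold. The count of called genes was 0 in each alternative but DESeq2, which gave 1. The count at an unadjusted p under 0.05 was 2, became 1 (*Hk2*) with a mean FPKM of at least 5 (21 genes tested), with either limma setting and with the replicate block, and 4 without both libraries numbered replicate 3; with 1 library left out it ran from 1 to 5, and without Stk11ec-/- replicate 2 it held 2 higher genes and 1 lower. *Hk2* was in each of these counts. The median log2 fold change of -0.08 was 0.17 in limma with either FPKM pseudocount, where the median of all tested loci was 0.14 for a pseudocount of 1 and 0.29 for 0.1, -0.31 with the joined loci, -0.21 with loci of like sequence summed and -0.18 without both libraries numbered replicate 3; with 1 library left out it ran from -0.19 to -0.03. No filter on low counts put the median of all tested loci at 0.12.

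*Gapdh* was 0.33 without both libraries numbered replicate 3 and ran from -0.85 to 0.11 with 1 library left out. *Eno1* was -0.27 with loci of like sequence summed, 0.0145 with no filter, 0.0659 with a mean FPKM of at least 5, 0.28 with either limma setting and 0.00766 without both libraries numbered replicate 3, and ran from -0.15 to 0.14 with 1 left out. *Ldha* was 0.0679 with limma at a pseudocount of 1, 0.0676 at 0.1 and 0.0253 without both libraries numbered replicate 3, and ran from -0.50 to 0.048. *Pdha1* ran from -0.036 to 0.30 and *Mpc1* from -0.071 to 0.65 with 1 left out. The cause of each reversal was not tested. Libraries of the same replicate number deviated together with correlations of 0.229, -0.193 and 0.0467, so the numbers were not taken to pair the libraries. Where only 2 libraries remained in a group, the fit pooled the spread over both genotypes. A common coefficient of variation of 0.628 limits what 3 libraries per genotype can show.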

Other observations

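The assembly also holds 23 loci with no Ensembl transcript that carry the name of one of the genes described, of which 5 had enough counts to be tested. The one with the smallest p was chosen after its values were seen. It carries the name *Aldoa*, lies just beyond the annotated end of that gene (chromosome 7, 126792657 to 126795163, GRCm38), and was at 16.2, 16.04 and 5.07 CPM in Stk11ec-/- libraries 1, 2 and 3 and at 5.29, 4.13 and 5.93 CPM in WT libraries 1, 2 and 3. With all loci with a gene name in the edgeR fit, its log2FC was 1.28 ± 0.52 (SE, adjusted p = 0.739), opposite in sign to that of *Aldoa* itself at -0.46, and Stk11ec-/- replicate 3 lay within the WT range.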
